A study of Homo sapiens with 6 samples.

Results

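The solute carriers of plasma and organelle membranes were described in DU145, a human prostate cancer cell line derived from a brain metastasis, with and without overexpression of TFEB. The members were the protein-coding genes of the deposited table whose symbol starts with SLC, a family number, A and a member number, leaving out the mitochondrial carrier family SLC25. There were 115 such genes among 10542 listed genes, 9222 of them protein coding. The rule used gene symbols and no measured value. Symbols also matched 2 genes that encode no transporter, SLC2A4RG, a DNA-binding regulator of SLC2A4, and SLC4A1AP, a protein named after its binding to SLC4A1, and both are given separately.

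The 3 libraries called DU145-TFEB came from DU145 cells that received a lentivirus carrying TFEB. The 3 libraries called DU145-vector came from DU145 cells that received the blank vector lentivirus. Both were stable lines kept after puromycin selection according to the study's methods, and whether a line was a pool of cells or a single clone, and which promoter drove TFEB, was not stated. Polyadenylated RNA of all 6 libraries was sequenced, and nothing in the labels says that the replicates were separate cultures, so the p-values measure the spread between these libraries, which may be technical.

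Solute carriers move small molecules across membranes without hydrolysing ATP themselves, either down a gradient or coupled to sodium, protons or an exchanged solute. They supply a growing cell with amino acids, glucose, metals and vitamins, set its pH and volume, and fill or empty the lysosome, the Golgi apparatus and secretory vesicles. TFEB is a transcription factor of lysosomal and autophagy genes that binds the E-box CACGTG and close variants of it, and several solute carriers of the lysosomal membrane take part in the nutrient sensing that acts upstream of TFEB.

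The E-box sites of 4 members are shown because they are the letters TFEB is known to read and because 2 of these genes had higher and 2 had lower values in DU145-TFEB. Each line gives 30 bases 5′ to 3′ on the strand of the gene, from the promoters of RefSeq (GRCh38.p14), with CACGTG in capitals.
SLC43A1: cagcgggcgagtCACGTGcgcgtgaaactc
SLC39A11: aggcgggagggcCACGTGtgcgggagggaa
SLC7A5: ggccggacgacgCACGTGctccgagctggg
SLC26A2: gcccggcagtacCACGTGacggcctcggcc
These windows lie at chr11:57515797-57515826 (minus strand, motif start -112 from the gene start) for SLC43A1, chr17:73092698-73092727 (minus strand, -27) for SLC39A11, chr16:87869620-87869649 (minus strand, -130) for SLC7A5 and chr5:149960722-149960751 (plus strand, -24) for SLC26A2. The log2 fold changes of these genes were 0.91, 0.60, -0.37 and -1.37. Of the 115 members, 93 matched a promoter of 250 bases before to 50 bases after the gene start. CACGTG, which reads the same on both strands, stood in 10 of these 93 promoters (10.8%), in 783 of the 7619 promoters of listed genes (10.3%) and in 2030 of all 27305 promoters (7.43%). The longer form with T before and A after it, contained in the count of CACGTG, stood in 0 of the 93, in 2.07% of listed and in 1.04% of all promoters. Members with CACGTG in this window were higher in DU145-TFEB in 7 and lower in 3 cases (median log2 fold change 0.46), and the 83 members without it were higher in 44 and lower in 39 cases, with a median of 0.33. With the GC and length trend described below taken off, these medians were -0.04 with CACGTG and -0.02 without it. A match describes letters only and is not evidence of binding.

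The values are read counts that the authors divided by a size factor for each library, called normalized read counts below. Dividing back gave 13999961 to 16511477 reads on the listed genes per library. TFEB itself had normalized read counts of 6325, 6301 and 6036 after overexpression, while the vector lines had 127, 124 and 125, so that every library stood with its label at a log2 fold change of 5.62. Exons of 59 of the 115 members overlap another annotated gene, 49 of them on the opposite strand, and the sources do not say whether reads were counted by strand. Of 5 epithelial markers, KRT8, KRT18 and KRT19 were listed, and the epithelial keratins were lower in DU145-TFEB at -0.68, -0.78 and -0.38 on the log2 scale. Removal of a GC and length trend, explained with the GC results, took them to -1.24, -1.34 and -1.17. None of 5 leukocyte and 5 stromal markers was listed, so these were not analysed here.

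The table is a selection of genes that passed an adjusted p of 0.05 in the comparison of the authors, so the listed genes were already known to differ. In limma, adjusted by Benjamini-Hochberg over the whole table, all 115 members passed an adjusted p of 0.05, as did 10539 of 10542 listed genes (rounded, 100%), and the 3 libraries of each group did not overlap in 115 members, against 99.3% of listed genes. Neither count therefore says anything about solute carriers. Calls in the text needed an adjusted p below 0.05 and a log2 fold change above 1.5 or below -1.5, the cutoffs of the study. The words rose and fell are kept for these calls, and higher and lower for the other members. Values are given for replicates 1 to 3 in order, DU145-TFEB against DU145-vector unless a sentence names the groups. Fold changes of DU145-TFEB over DU145-vector are on the scale of log2(normalized read count + 1). An exact permutation test of 3 against 3 libraries cannot give a two-sided p below 0.1 for a single gene.

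Of the 115 solute carriers, 63 were higher and 52 lower in DU145-TFEB, beside 47.6% higher and 52.4% lower among the listed genes. Calls were made for 22 members, 4 that rose and 18 that fell. Among all listed genes 2.54% rose and 16.5% fell, 19.1% together, and the 22 members are near that share. At a cutoff of 1 on the log2 scale the members gave 8 rises and 32 falls, beside 8.41% and 31.1% of the listed genes. The median log2 fold change was 0.35 over the members and -0.36 over the listed genes. The genes that rose were SLC6A12, SLC22A31, SLC5A5 and SLC2A7. The genes that fell were SLC7A11, SLC38A1, SLC38A2, SLC38A9, SLC7A2 and SLC17A8 among amino acid carriers, SLC4A4, SLC4A7, SLC12A2 and SLC26A4 among carriers of inorganic ions, SLC30A1, SLC30A6 and SLC30A7 among metal carriers, SLC35A3 and SLC35A5 among sugar carriers, and SLC10A5, SLC10A7 and SLC16A12. SLC5A5, SLC2A7, SLC26A4, SLC10A5 and SLC16A12 had fewer than 10 reads in at least 1 library. The split of the calls depended on scaling, with 5 risen and 11 fallen in DESeq2, 5 and 10 with median-ratio size factors in limma and 6 and 6 after quantile normalization. In DESeq2 the calls of SLC38A2, SLC38A9, SLC7A2, SLC12A2, SLC30A7, SLC35A5 and SLC10A7 were lost, and without DU145-TFEB replicate 2 those of SLC38A9, SLC7A2, SLC12A2, SLC30A7 and SLC16A12. Since bulk RNA was measured, fewer transcripts per cell and fewer cells that carry them cannot be told apart.

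**Figure D1:**
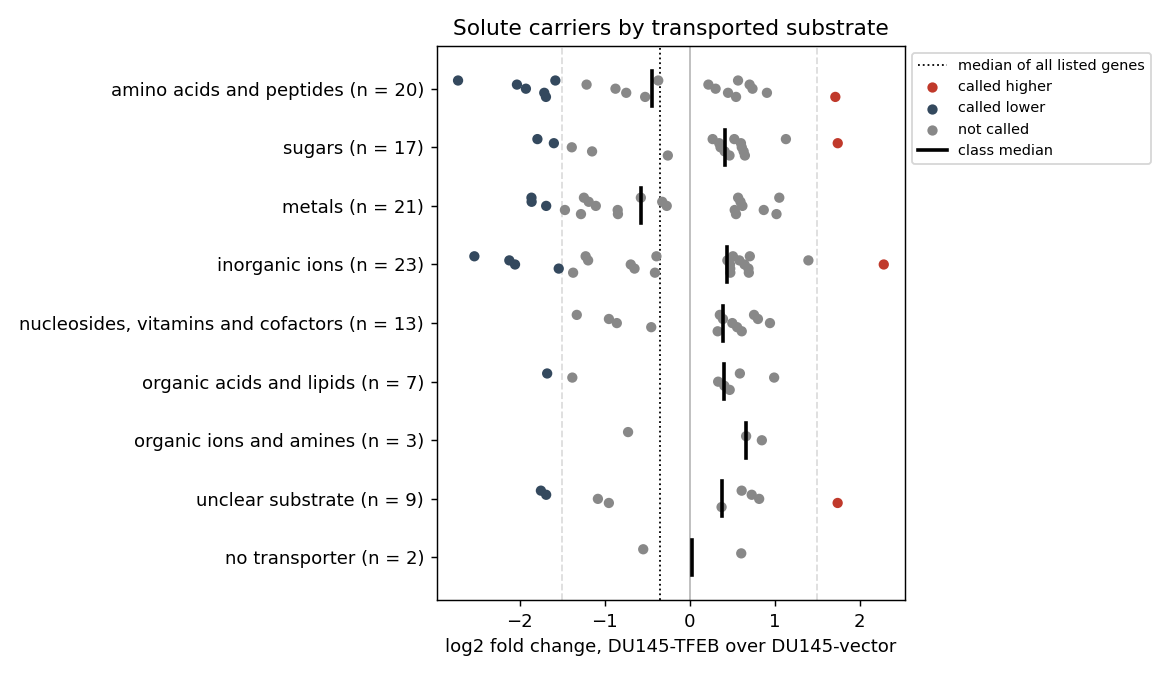
Log2 fold change of DU145-TFEB over DU145-vector (x axis) of each of the 115 solute carriers by transported substrate (rows), with calls in colour, class medians as bars and the median of all listed genes, -0.36, as a dotted line. The 7 calls among amino acid carriers are 6 falls and 1 rise, and no call is made among the 13 carriers of nucleosides, vitamins and cofactors.

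The fold changes of the members followed the GC content of their transcripts. Members under 45% GC numbered 46, of which 44 were lower (95.7%) and 18 fell (39.1%), beside 93.2% lower and 34.2% fallen among the 4455 listed genes of that range. Members with at least 55% GC numbered 52, of which 51 were higher (98.1%) and 4 rose (7.69%), beside 96.7% higher and 4.41% risen among the 3175 listed genes of that range. The highest GC content of a member that fell was 41.7%, and the lowest of a member that rose was 55.4%. Spearman's rho between log2 fold change and GC content was 0.78 over the 115 members and 0.74 over 10537 listed genes with a GC value, and genes are not independent replicates. Replicates within a group were set apart by GC content too, with rho between GC content and the difference of a pair of libraries, over the members, of -0.61 for DU145-TFEB replicates 1 minus 2, 0.47 for 1 minus 3 and 0.60 for 2 minus 3. In DU145-vector the values were 0.53 for 1 minus 2, -0.15 for 1 minus 3 and -0.55 for 2 minus 3. Since the direction of this relation coincides with the groups, a difference of the libraries in GC content and an effect of TFEB cannot be told apart for a gene at the ends of the range.

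For this reason the log2 fold changes are set beside the values after a smooth trend over GC content and gene length, fitted across the listed genes in each library, was taken off (here called the trend-removed value). The median over the members was then -0.02, beside 0.01 over the listed genes. With the trend removed, 29 members were higher and 30 lower at an adjusted p below 0.05 in limma with Benjamini-Hochberg adjustment, beside 31.5% and 28.7% of the listed genes. The sign changed in 47 of the 115 members. None of the 22 calls kept a log2 fold change beyond 1.5 with an adjusted p below 0.05 under this removal, and 1 other member, SLC43A3, reached it, where 5.35% of listed genes did.

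**Figure D2:**
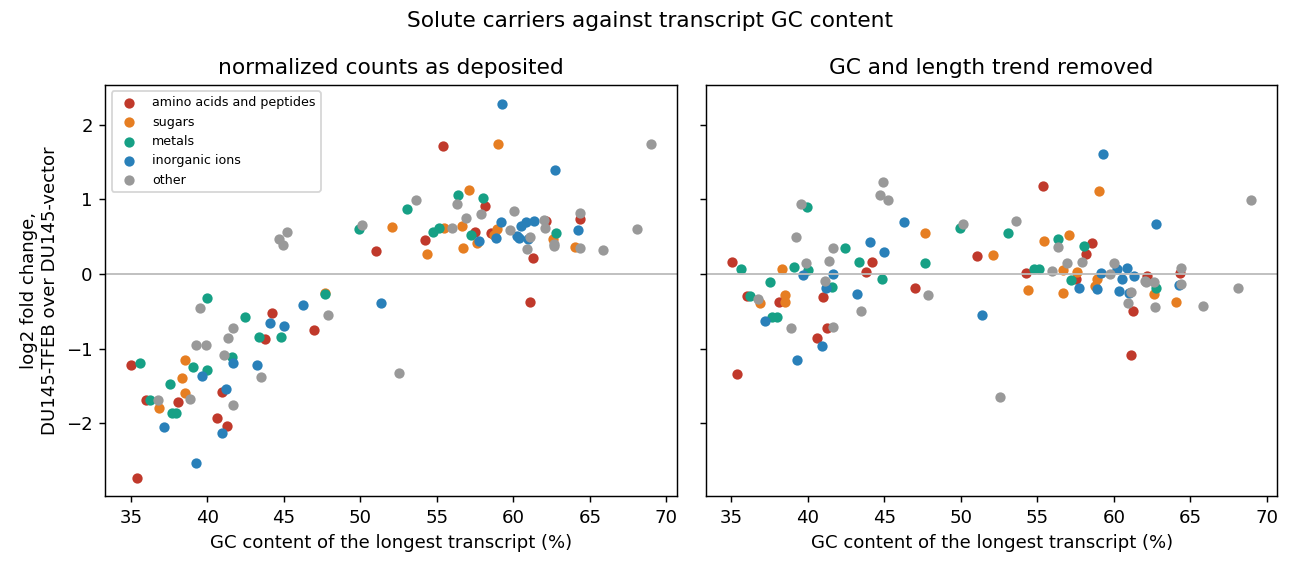
Log2 fold change of DU145-TFEB over DU145-vector (y axis) against the GC content of the longest transcript in percent (x axis) for the 115 solute carriers, coloured by substrate, as deposited on the left and with the GC and length trend removed on the right. On the left rho is 0.78 and nearly all members under 45% GC are below zero, and on the right rho is 0.11.

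Carriers of amino acids and peptides numbered 20, of which 9 were higher and 11 lower, 1 rose and 6 fell. Their median log2 fold change was -0.45, their trend-removed median -0.04 and their median GC content 49.0%. SLC7A11 had the largest fall on the log2(normalized read count + 1) scale among the members with at least 10 reads in every library. It is the transport subunit of the cystine-glutamate exchanger, which brings in cystine for glutathione synthesis (ENSG00000151012, GRCh38 chr4:138164097-138242349, minus strand). Its normalized read counts were 382, 298 and 502 in DU145-TFEB and 2251, 3219 and 2305 in DU145-vector. The highest DU145-TFEB library stayed far below the lowest DU145-vector library, and the mean of 394 ± 102 (SD, n = 3) was 6.58-fold lower than 2592 ± 544 (SD, n = 3). The log2 fold change was -2.73 (SE 0.19; adjusted p = 3.98e-06, limma with Benjamini-Hochberg adjustment), and -1.33 with the trend removed, at a GC content of 35.4%. Exons of the gene overlap an antisense gene, SLC7A11-AS1, and strand was not stated for the counting.

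SLC38A1 and SLC38A2, the sodium-coupled carriers of glutamine and other small neutral amino acids, fell together. They lie near each other on chromosome 12 (GRCh38 chr12:46183063-46270017, minus strand and chr12:46358189-46372867, minus strand). SLC38A1 was read at 993, 749.8 and 1261 in DU145-TFEB against 3813, 4674 and 3625 in DU145-vector. SLC38A2 was read at 2018, 1672 and 2341 against 6408, 6639.9 and 6536. Both genes had their lowest value in DU145-TFEB replicate 2 and their highest in DU145-vector replicate 2, with no overlap of groups. The means fell 4.03-fold for SLC38A1 (log2 fold change -2.03, SE 0.17) and 3.25-fold for SLC38A2 (-1.71, SE 0.11), and the adjusted p in limma with Benjamini-Hochberg adjustment was 7.33e-06 and 3.26e-06. Trend-removed values were -0.73 and -0.38.

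SLC38A9, the lysosomal arginine sensor that signals to mTORC1, had 121, 81 and 145 normalized read counts in DU145-TFEB and 286, 465 and 368 in DU145-vector. The groups did not overlap, and DU145-TFEB replicate 2 was lowest. Its log2 fold change was -1.69 (SE 0.24; adjusted p = 0.000119, limma with Benjamini-Hochberg adjustment), or -0.29 with the trend removed. SLC36A1, the proton-coupled carrier that lets small amino acids out of the lysosome, was higher, at 912 ± 41.3 against 739 ± 59 (SD, n = 3 each), a log2 fold change of 0.30 and 0.24 with the trend removed. The lysosomal glutamine carrier SLC38A7 was also higher at 0.57, with -0.06 after removal. The carriers of endosomes, lysosomes and vesicles across all substrates were 6 higher and 6 lower of 12, with 2 falls, SLC38A9 and the vesicular glutamate carrier SLC17A8, and with a median of -0.39 as deposited and 0.02 with the trend removed.

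SLC7A5, the light chain that carries leucine and other large neutral amino acids, had the highest level of all members per kilobase of gene length, 2912 normalized read counts per kilobase over the 6 libraries. Its values were 11319.8, 13916 and 11024 in DU145-TFEB and 16165, 15458 and 15016 in DU145-vector. All DU145-TFEB libraries were lower, by a log2 fold change of -0.37 (SE 0.093). SLC7A5 was the only one of the 52 members with at least 55% GC that was lower, and at a GC content of 61.1% its trend-removed value was larger, -1.09. SLC1A5, the sodium-dependent glutamine carrier, was slightly higher, at 3980.5 ± 195 against 3419 ± 216 (SD, n = 3 each), and its log2 fold change of 0.22 turned to -0.50 with the trend removed. SLC3A2, the heavy chain that SLC7A5 and SLC7A11 need at the surface, was not analysed here.

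The remaining members of SLC7 were also lower, with a fall for SLC7A2, a carrier of arginine and lysine, at -1.58 on the log2 scale (-0.31 with the trend removed) and SLC7A6 at -0.75 (-0.19), so that 4 of 4 listed SLC7 genes were lower. Each of the 3 listed SLC6 genes was higher. SLC6A12, the betaine and GABA carrier that cells use against osmotic stress, rose from 27.4, 17.6 and 17 to 64.2, 57.3 and 87.2, a log2 fold change of 1.71 and 1.18 with the trend removed, at low counts. The creatine carrier SLC6A8 was higher at 0.71 and at -0.02 after removal. The neutral amino acid carrier SLC43A1, whose E-box is printed above, had 408, 387 and 397 against 203, 198 and 234 normalized read counts, a log2 fold change of 0.91 (SE 0.11) and a trend-removed value of 0.26. SLC38A10 was higher at 0.74 and 0.01 with the trend removed. Of the ATF4 response transporters, a list of 10 carriers of amino acids, 5 were in the table, 2 higher and 3 lower with 2 falls (SLC7A11 and SLC38A2), with a median of -0.37 and a trend-removed median of -0.50.

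**Figure D3:**
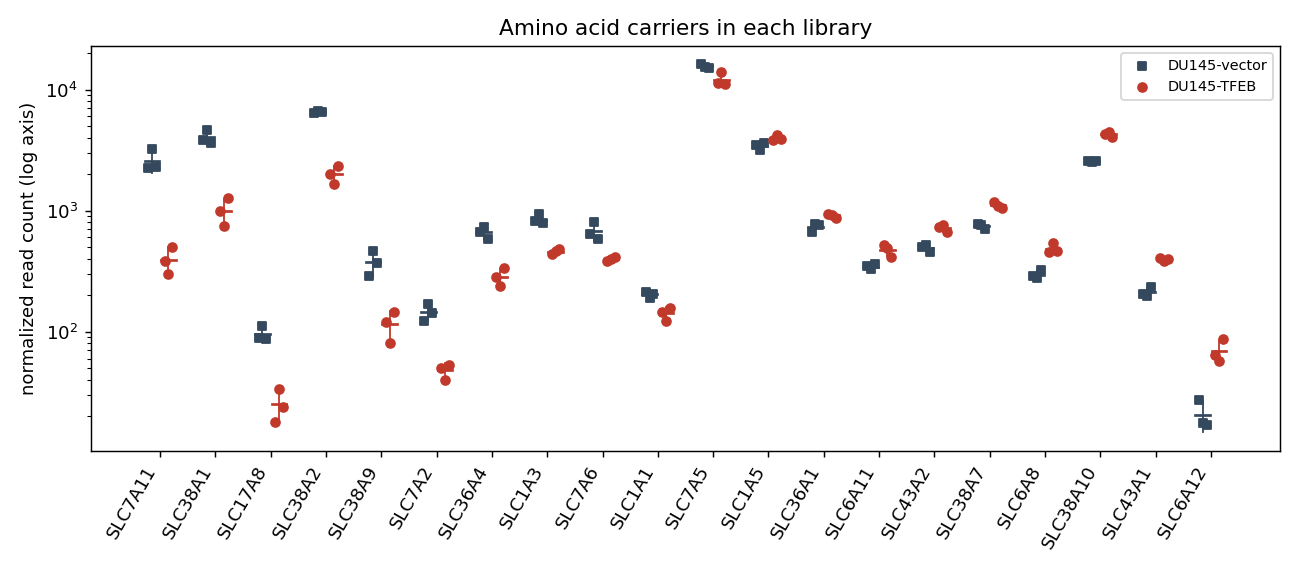
Normalized read count (y axis, log scale) of the 20 carriers of amino acids and peptides in each library, ordered by fold change, with squares for DU145-vector, circles for DU145-TFEB and a bar with a whisker for the mean and SD of 3 libraries. The groups are apart for each gene, as they are for 99.3% of listed genes. The widest gap is that of SLC7A11, where DU145-TFEB lies between 298 and 502 and DU145-vector between 2251 and 3219.

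Carriers of metals numbered 21, of which 8 were higher and 13 lower. None rose and 3 fell, all zinc exporters of the SLC30 family. The class median was -0.58, the trend-removed median 0.07 and the median GC content 43.4%. Most proteins of the families SLC30 and SLC39 work in opposite directions, SLC30 taking zinc out of the cytosol and SLC39 bringing it in. Of 7 SLC30 genes, 6 were lower and 1 higher, with a median of -1.28 at a median GC content of 39.1%. The lower SLC30 genes include SLC30A9, which is placed at mitochondria (-1.25, and 0.09 with the trend removed), so the family count does not stand for 1 direction of zinc transport. Of 11 SLC39 genes, 6 were higher and 5 lower, with a median of 0.53 at 49.9%. With the trend removed, the medians of the families were 0.05 and 0.07.

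SLC30A1, the zinc exporter of the plasma membrane, had normalized read counts of 192, 192 and 179.6 in DU145-TFEB and 608, 953 and 553 in DU145-vector. The DU145-TFEB libraries were close to each other, while DU145-vector replicate 2 was far above its own group. The mean fell 3.75-fold (log2 fold change -1.86, SE 0.19; adjusted p = 1.63e-05, limma with Benjamini-Hochberg adjustment). SLC30A6 and SLC30A7, which load zinc into the Golgi apparatus and its vesicles, had 314, 248 and 343 against 1022, 1275 and 989 and 196, 132 and 211 against 537, 612 and 562. Neither gene's groups overlapped, and DU145-TFEB replicate 2 was lowest in both. Their log2 fold changes were -1.86 and -1.69, and the trend-removed values of SLC30A1, SLC30A6 and SLC30A7 were -0.58, -0.58 and -0.29. SLC30A5, the partner of SLC30A6 in the early secretory pathway, differed by only -0.32 as deposited and by 0.90 with the trend removed, at a GC content of 39.95%. The vesicular zinc carrier SLC30A3 was higher, at 379 ± 33.3 against 182 ± 14.3 (SD, n = 3 each), a log2 fold change of 1.05 and 0.47 with the trend removed.

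Among zinc importers, SLC39A7, which releases zinc from the endoplasmic reticulum, had the next highest level per kilobase after SLC7A5, 2573. It was higher in DU145-TFEB, at 9089, 8396 and 9104 against 6189, 5195 and 5947, with a log2 fold change of 0.62 (SE 0.08) and 0.07 with the trend removed. Its exons overlap those of RXRB on the other strand. SLC39A3 was read at 886, 904 and 939 against 474, 438 and 431, with a log2 fold change of 1.02. SLC39A6, a zinc importer of the plasma membrane, was lower at 2022, 1818 and 2439 against 4446, 4854 and 4142, with -1.11. After removal SLC39A3 stood at 0.37 and SLC39A6 at -0.17. SLC39A14, a carrier of zinc, iron and manganese, differed little, at 4449.9 ± 45.3 against 5369 ± 93.7 (SD, n = 3 each), and its log2 fold change of -0.27 became 0.15. SLC39A11, with an E-box in its promoter window, was higher by 0.60 and kept 0.62 with the trend removed.

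Outside these families, the magnesium carriers went different ways, SLC41A3 at 0.87 (0.54 with the trend removed) and SLC41A2 at -1.19 (0.07). SLC40A1, the iron exporter ferroportin, was lower at -0.58 and stood at 0.35 after removal. Of 11 metal-responsive genes, 4 were listed. The metallothioneins MT1A, MT1F and MT1X, which bind zinc and copper, were higher by 0.66, 0.61 and 0.57 on the log2 scale, and MTF1, the zinc-sensing transcription factor that drives them and SLC30A1, was lower at -0.96. With the trend removed the values were 0.81, -0.14 and 0.08 for the metallothioneins and -0.32 for MTF1. Metallothionein genes are near-identical copies, and reads may be split between them.

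**Figure D4:**
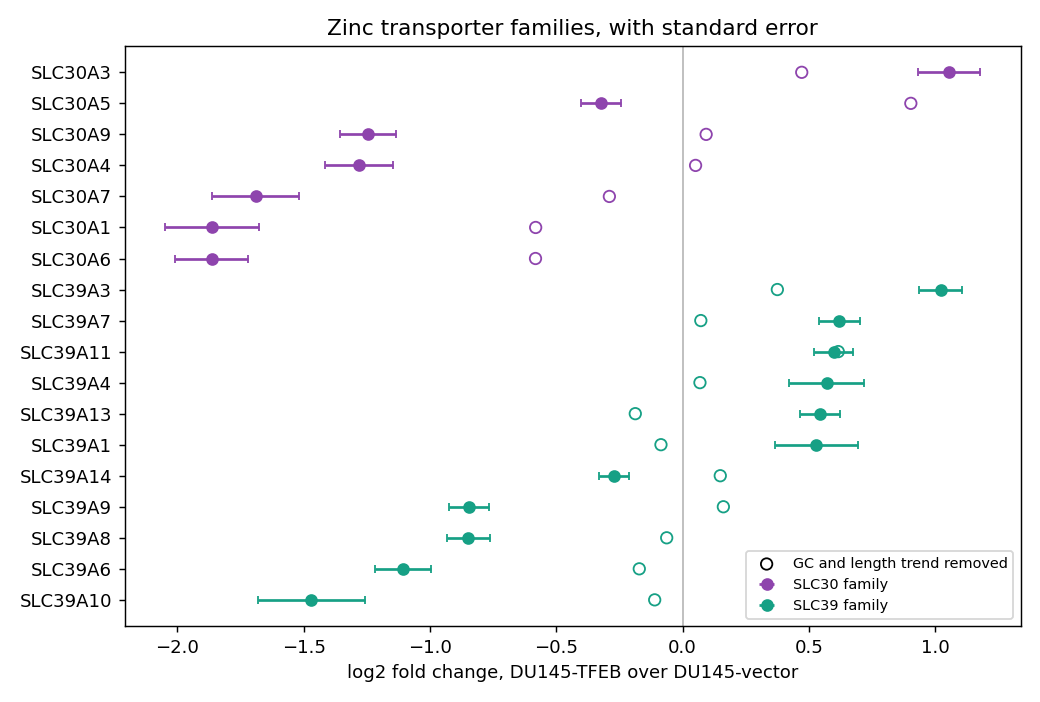
Log2 fold change of DU145-TFEB over DU145-vector (x axis) of the listed zinc carriers of the SLC30 and SLC39 families (rows), filled points with the standard error as bars for the deposited values and open points with the GC and length trend removed. Of the 7 SLC30 genes 6 lie below zero when filled, and the open points of SLC30A4, SLC30A5 and SLC30A9 lie above it.

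Carriers of inorganic ions numbered 23, of which 12 were higher and 11 lower, 1 rose and 4 fell. The class median was 0.44, the trend-removed median -0.06 and the median GC content 57.7%. The bicarbonate carriers of the SLC4 family, which regulate the pH of the cell, were grouped by mode of transport after their values were seen. The sodium-coupled carriers SLC4A4, SLC4A7 and SLC4A8, which load bicarbonate together with sodium, were lower in 3 of 3 cases, and the chloride-bicarbonate exchangers SLC4A2 and SLC4A3 were higher in 2 of 2. The median GC content was 39.3% in the sodium-coupled genes and 62.8% in the exchangers.

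SLC4A4 (GRCh38 chr4:71062667-71572087, plus strand) was read at 68.4, 33.7 and 83.1 in DU145-TFEB and at 306, 377 and 338 in DU145-vector. The DU145-TFEB values spread widely, replicate 2 being lowest, yet none came near the other group, and the mean fell 5.52-fold (log2 fold change -2.53, SE 0.29; adjusted p = 3.43e-05, limma with Benjamini-Hochberg adjustment). SLC4A7 was read at 268, 147 and 380.0 against 1023, 996 and 1072, with a like spread among DU145-TFEB libraries and a fall of 3.88-fold (-2.06, SE 0.27). Trend-removed values were -1.15 for SLC4A4 and -0.64 for SLC4A7, while SLC4A8 went from -0.41 to 0.70. The anion exchanger SLC4A2, among the 10 highest members per kilobase, was higher at 7983, 8976 and 7278 against 4876, 4771 and 5147. Its log2 fold change of 0.71 came to -0.02 with the trend removed, and its exons overlap CDK5 on the other strand. SLC4A11 was higher at 0.70 and stood at 0.02 after removal.

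The cation-chloride cotransporters of SLC12 set cell volume and chloride, SLC12A2 by taking up sodium, potassium and chloride and SLC12A4 and SLC12A7 by letting potassium and chloride out. SLC12A2 fell from 315, 456 and 368 to 134, 97.4 and 162, without overlap, at a log2 fold change of -1.54 (SE 0.20; adjusted p = 8.38e-05, limma with Benjamini-Hochberg adjustment) just past the cutoff, and -0.19 with the trend removed. SLC12A4 was higher at 1602 ± 87.7 against 992 ± 56 (SD, n = 3 each), a log2 fold change of 0.69 and 0.08 after removal. SLC12A7 was higher at 0.47 and stood at -0.25 after removal. Of 6 kinases of the WNK pathway, which switch these cotransporters by phosphorylation, 5 were listed, 1 higher and 4 lower. WNK3 fell (-1.70), WNK1, OXSR1 and STK39 were lower at -1.39, -1.12 and -0.26, and WNK2 was higher at 0.72, with a median of -1.12 and a trend-removed median of -0.28. Trend-removed values were -0.28 for WNK3, -0.46 for WNK1, -0.48 for OXSR1, 0.16 for STK39 and 0.39 for WNK2.

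The sodium-proton exchangers of SLC9 were 2 higher and 3 lower of 5, with the surface exchanger SLC9A2 at -1.23 (-0.27 with the trend removed), and the family's trend-removed median was -0.06. The higher genes, SLC9A3 at 0.65 and SLC9A5 at 0.44, have the same membrane assignment as SLC9A2 and stood at -0.06 and -0.19 after removal. SLC26A2, a sulfate carrier needed for the sulfation of proteoglycans and with an E-box in its promoter window, was lower at -1.37 and at -0.02 with the trend removed. SLC5A5, the sodium-iodide symporter, and SLC26A4, an iodide and chloride exchanger, were called in opposite directions at normalized read counts of at most 18.2 and 11 in any library. Of the subunits of the sodium pump, which makes the sodium gradient that many carriers use, ATP1B2 was higher (0.89) and ATP1B1 lower (-0.67), neither called, with trend-removed values of 0.48 and -0.46.

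**Figure D5:**
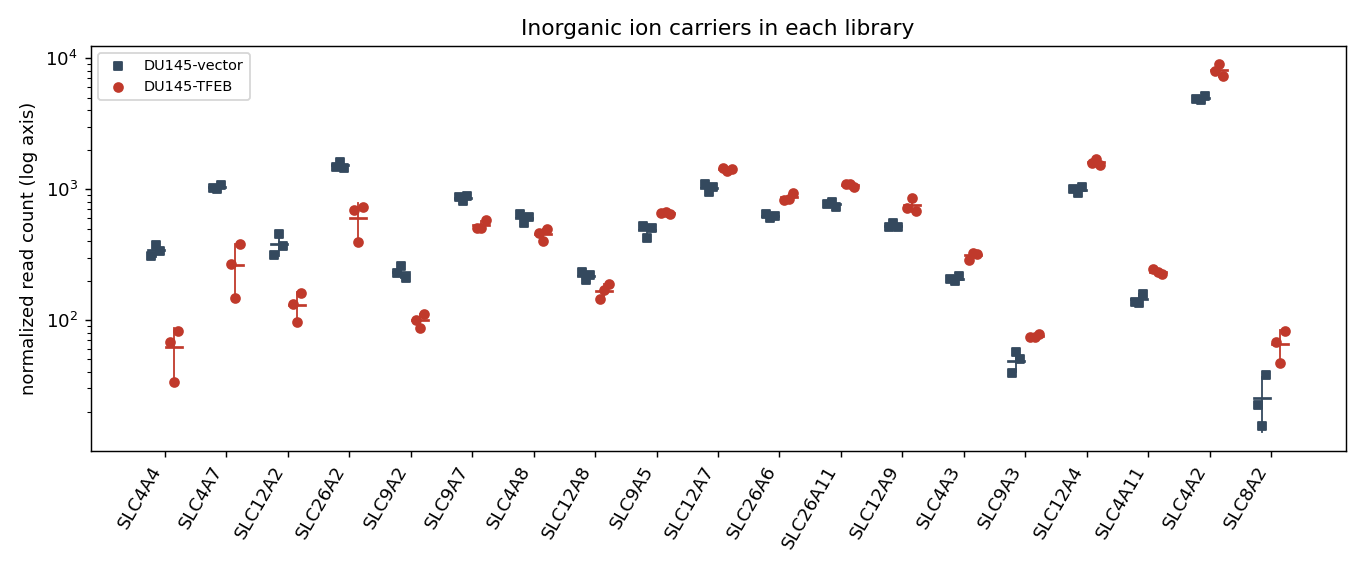
Normalized read count (y axis, log scale) of carriers of inorganic ions in each library, ordered by fold change, with squares for DU145-vector, circles for DU145-TFEB and a bar with a whisker for the mean and SD of 3 libraries (SLC5A5 and SLC26A4, with the lowest counts, and genes not reported here are left out). DU145-TFEB replicate 2 is the lowest point for SLC4A4, SLC4A7, SLC12A2 and SLC26A2.

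Carriers of sugars and nucleotide sugars numbered 17, of which 12 were higher and 5 lower, 1 rose and 2 fell. The class median was 0.41, the trend-removed median -0.06 and the median GC content 56.7%. All 5 listed glucose carriers of the SLC2 family were higher, at a median GC content of 59.0%, and their median of 0.61 was 0.44 with the trend removed. After that removal 3 were higher and 2 lower, SLC2A6 at -0.38 and SLC2A8 at -0.26. SLC2A4, the insulin-responsive glucose carrier of muscle and fat, had 234, 173 and 249 against 98, 84.9 and 113 normalized read counts. The groups did not overlap, with a log2 fold change of 1.13 (SE 0.18) and 0.52 with the trend removed. SLC2A7 was called at a normalized read count of at most 23.9 in any library. SLC2A1, the main glucose carrier of many tumour cells, was not analysed here.

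SLC50A1, a glucose carrier of the Golgi apparatus and plasma membrane, was among the highest members per kilobase (1120.1) and was higher at 3185 ± 107 against 2057 ± 193 (SD, n = 3 each), a log2 fold change of 0.63 and 0.26 after removal. SLC37A4, the glucose-6-phosphate carrier of the endoplasmic reticulum, was higher at 0.65 and stood at 0.05 with the trend removed. The nucleotide sugar carriers SLC35A3 and SLC35A5 of the Golgi apparatus, of which SLC35A3 supplies UDP-N-acetylglucosamine for glycan branching, fell. Of the 5 listed SLC35A genes, 2 were higher and 3 lower, and with the trend removed all 5 were below 0, with a median of -0.28. The higher genes had a GC content of 56.7% and 54.4%, against 36.9% for SLC35A3 and 38.5% for SLC35A5. SLC35A3 was read at 149, 119 and 179 against 463, 579 and 501, with a log2 fold change of -1.79 (SE 0.16). SLC35A5 was read at 174, 164 and 193 against 559.7, 577 and 478, with -1.60 (SE 0.12). Both genes had every DU145-TFEB library below every DU145-vector library, their adjusted p was 9.95e-06 and 5.07e-06 in limma with Benjamini-Hochberg adjustment, and their trend-removed values were -0.39 and -0.37. SLC5A3, the myo-inositol carrier that is used for osmotic balance, was lower at 310.4, 180.2 and 367 against 538, 879.7 and 782, and its log2 fold change of -1.39 became 0.07. Its exons overlap MRPS6 on the same strand.

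Carriers of nucleosides, vitamins and cofactors numbered 13, of which 9 were higher and 4 lower, with no call by limma, beside 19.1% of listed genes called. All 13 had an adjusted p below 0.05 in limma, as did 10539 of 10542 listed genes, so that count says nothing about the class. Their median was 0.39, their trend-removed median 0.16 and their median GC content 56.0%. SLC44A2, a choline carrier, was highest per kilobase in the class (752) and was read at 5355, 5047 and 5061 against 2971, 2377 and 2716. The haem carrier of the endolysosome, SLC48A1, had 2198, 2232 and 2076 against 1215, 1262 and 1249. SLC29A1, the equilibrative nucleoside carrier, had 2640.0, 2751 and 2435 against 1618, 1532 and 1476. In these genes no DU145-vector library reached a DU145-TFEB library, and the log2 fold changes were 0.94, 0.80 and 0.76, or 0.36, 0.16 and 0.15 with the trend removed.

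Lower members were SLC44A1, a choline carrier (-0.95), SLC19A2, a thiamine carrier (-0.86), SLC33A1, which brings acetyl-CoA into the endoplasmic reticulum (-0.45), and SLC43A3, a purine carrier (-1.33). With the trend removed the first 3 changed sign, to 0.50, 0.18 and 0.94. SLC43A3 instead moved further, to -1.65, with normalized read counts of 50.5, 38.2 and 27 in DU145-TFEB against 99, 96.6 and 91 in DU145-vector at a GC content of 52.5%. Another thiamine carrier, SLC19A3, was read at 217, 229 and 211 against 143, 181 and 178, and its log2 fold change of 0.39 became 1.23.

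Carriers of organic acids and lipids numbered 7, of which 5 were higher and 2 lower, with 1 fall, the low-count SLC10A5. Their median was 0.41 and their trend-removed median -0.11. SLC16A1, the monocarboxylate carrier for lactate and pyruvate uptake or release, was read at 770.2, 854 and 945 in DU145-TFEB and 2169, 2408 and 2112 in DU145-vector. SLC16A3, the carrier used for lactate export, was read at 5766, 6534 and 5615 against 4422, 4162 and 4927. SLC16A1 was lower and SLC16A3 higher in all DU145-TFEB libraries, with log2 fold changes of -1.38 (SE 0.095) and 0.41 (SE 0.087). After removal they stood at -0.50 and -0.11. Of their 3 surface chaperones, BSG was higher at 0.80 and EMB lower at -1.27, which came to 0.08 and 0.01 with the trend removed.

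SLC17A5, the lysosomal sialic acid exporter sialin, was higher at 648, 529 and 647 against 475, 413 and 424, a log2 fold change of 0.47 (SE 0.11; adjusted p = 0.00297, limma with Benjamini-Hochberg adjustment). It was 1 of only 2 members under 45% GC that were higher, the other being SLC19A3, and its trend-removed value was 1.05. The fatty acid carriers of SLC27 were higher in 3 of 3 cases, SLC27A1 at 0.59, SLC27A4 at 0.33 and SLC27A5 at 0.99. With the trend removed these 3 genes went different ways, at 0.01, -0.38 and 0.71. Carriers of organic ions and amines numbered 3, of which 2 were higher and 1 lower, none called, with a median of 0.66 and a trend-removed median of 0.35. SLC29A4, a monoamine carrier, was higher at 0.85 (0.15 with the trend removed) and SLC47A1, the proton-coupled exporter of organic cations, at 0.66 (0.66), and SLC22A15 was lower at -0.73 (0.35).

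Members of unclear substrate numbered 9. SLC22A31, of which no substrate is established, rose from 49, 38 and 33 to 139, 127 and 137. The mean was 3.36-fold higher (log2 fold change 1.74, SE 0.19; adjusted p = 2.54e-05, limma with Benjamini-Hochberg adjustment), at the highest GC content of all members, 69.0%, and the trend-removed value was 0.99. SLC22A17, SLC16A13 and SLC22A18 were higher at 0.82, 0.73 and 0.61, and at 0.08, -0.10 and -0.11 with the trend removed. SLC46A3, a lysosomal carrier, was lower at -1.08 and at -0.10 after removal. The 2 genes without transport function were SLC2A4RG at 0.61 (-0.19) and SLC4A1AP at -0.55 (-0.28).

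Genes that set how much of a carrier stays at the cell surface were lower in 8 of 8 listed cases of a list of 11, with 3 falls and a median of -1.26, beside a trend-removed median of -0.15. Among all listed genes 52.4% were lower and 16.5% fell. NEDD4, the ubiquitin ligase that marks surface carriers for degradation, fell by 2.27 on the log2 scale (709.7 ± 158 against 3392 ± 341, SD, n = 3 each), and its trend-removed value was -0.86. PDZK1, a scaffold of surface carriers, and ARRDC4 fell at low counts, PDZK1 at -1.87 (trend removed, -1.37) and ARRDC4 at -1.96 (trend removed, -1.16). The groups overlapped for ARRDC4, at normalized read counts of 2.1, 4.5 and 0 against 3.9, 19.5 and 9. NEDD4L, SGK1 and ARRDC3 were lower at -0.68, -0.90 and -1.14 and stood at 0.60, 0.41 and 0.11 with the trend removed. SGK3 and CHP1 were lower at -1.38 and -0.57 and stood at -0.05 and -0.25 with the trend removed.

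By membrane, the carriers of the Golgi apparatus and endoplasmic reticulum were 8 higher and 10 lower of 18, with 4 falls, a median of -0.29 and a trend-removed median of -0.05. The 83 members placed at the plasma membrane or not assigned include SLC2A4RG and SLC4A1AP, which encode no transporter. They were 48 higher and 35 lower, with 4 rises and 12 falls, a median of 0.39 and a trend-removed median of -0.02. Median GC content was 46.3% in the Golgi and endoplasmic reticulum group and 55.5% in the group at the plasma membrane or not assigned. The trend-removed medians of all membrane groups of more than 10 genes lay within -0.05 to 0.02.

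The members with at least 10 reads in every library that were farthest from 0 with the trend removed, chosen after their values were seen, differ in part from the calls above. The lowest were SLC43A3 (-1.65), SLC7A11 (-1.33), SLC4A4 (-1.15) and SLC7A5 (-1.09), and these 4 were lower on both scales. The highest were SLC19A3 (1.23), SLC6A12 (1.18) and SLC17A5 (1.05).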

How the data were processed

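Sequencing of polyadenylated RNA gave 6 libraries, 3 per group, and reads were aligned to GRCh38 with HISAT2 2.1.0, after base calling with CASAVA 1.8, per the submitters' processing notes, which also name edgeR. The study's methods name DESeq2 for the comparison. The counting program, its strand setting and the annotation are not given in the sources used here. The signal values are gene read counts that the authors divided by a size factor per library (0.950 to 1.10), and every value came back as a whole read within a share of 0.001. The deposited table also holds the authors' group means, log2 fold changes, p-values and adjusted p-values, which entered no result. All 10542 listed genes have an adjusted p below 0.05 in it.

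Values were tested as log2(normalized read count + 1) with limma 3.58.1 in R 4.3.3 with a mean-variance trend, without low-count filtering, with Benjamini-Hochberg adjustment over all 10542 genes. On counts simulated with 200 changed genes the script was tested and recovered 200. These genes were drawn above a minimum mean count and changed by more than the cutoff, while all other genes stayed unchanged. No GC trend was simulated, so the test does not cover low counts or differences that follow GC content. The alternatives were edgeR 4.0.16, DESeq2 1.42.0, other scalings, pseudocounts, filters and cutoffs, single libraries left out, a replicate block, and removal of a loess trend (span 0.5) over GC content and gene length. GC content came from the longest GENCODE 29 transcript, whose gene positions equal the deposited ones for 10531 genes. Same-numbered libraries did not deviate together (correlations -0.02, -0.25 and -0.14), so they were not treated as pairs. Within groups, counts differed between all libraries by more than sampling noise (chi-square per gene 2.97 to 27.2).

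The members, substrate classes and lists were chosen with earlier results of these data known, and the class of SLC4A1AP after the table was seen. Named genes were members called with a mean of at least 100 normalized read counts, up to 3 members per class and direction with the largest differences above that mean, the 10 highest per kilobase, a fixed list of 14 carriers (10 listed) and the matched genes that encode no transporter. Others, including families given whole, were named after their values were seen. Intervals of counting error are not given, since replicates measure the spread. Some genes are not reported here by name.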

Additional observations from a re-analysis of the deposited data

How the results depend on the processing

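Removing the GC and length trend changed the results most. No solute carrier was then called higher (0) and 1 lower, the median over the members turned to -0.017, that of sugars to -0.064, metals to 0.069 and inorganic ions to -0.062, and that of amino acids and peptides moved to -0.041. Of the 115 members 47 changed sign, and those among the genes named by rule were SLC44A1 (0.50), SLC4A2 (-0.020), SLC2A4RG (-0.19), SLC19A2 (0.18), SLC6A8 (-0.020), SLC22A18 (-0.11), SLC16A13 (-0.10), SLC16A3 (-0.11), SLC5A3 (0.068), SLC39A14 (0.15), SLC33A1 (0.94) and SLC1A5 (-0.50). With the trend removed and the replicate block, 1 was called higher and 1 lower at these same values. The replicate block alone left 4 called higher and 18 lower, the same 22 genes, and 114 of 115 members at an adjusted p below 0.05. Libraries of a number were not paired by design or data.

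Scaling moved the median over all listed genes from -0.36 to -0.11 in DESeq2, -0.12 with median-ratio size factors in limma (chosen after seeing the data), -0.28 in edgeR, -0.40 by library size, -0.18 by upper quartile and -0.03 by quantiles. The medians for members, amino acids and peptides, sugars, metals and inorganic ions moved with it, in that order, to 0.58, -0.20, 0.65, -0.33 and 0.68 in DESeq2 (11 called lower), to 0.59, -0.21, 0.65, -0.34 and 0.68 with median-ratio factors (10 lower), to 0.42, -0.36, 0.49, -0.50 and 0.52 in edgeR, to 0.30, -0.50, 0.36, -0.62 and 0.39 by library size, to 0.53, -0.27, 0.59, -0.40 and 0.62 by upper quartile, and to 0.52, -0.20, 0.67, -0.32 and 0.63 by quantiles (6 lower; SLC33A1 reversed to 0.011). No member changed sign in DESeq2, edgeR or by library size or upper quartile, and 3 did by quantiles. A pseudocount of 5, or at least 10 reads in every library (110 members), left 2 called higher. A cutoff of 1 gave 8 higher and 32 lower, and a cutoff of 2 gave 1 and 5. The longer E-box was in 0 promoters. The 22 calls stayed the same among protein-coding genes alone, also added after seeing the data.

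Leaving out 1 library gave 4 to 5 called higher and 13 to 21 lower, with medians of 0.29 to 0.40 for members, -0.47 to -0.42 for amino acids and peptides, 0.37 to 0.44 for sugars, -0.67 to -0.45 for metals and 0.35 to 0.48 for inorganic ions, and TFEB at 5.61 to 5.64. Without DU145-TFEB replicate 2, SLC12A2, SLC16A12, SLC30A7, SLC38A9 and SLC7A2 were no longer called. Counts under 10 reads limit SLC5A5, SLC26A4, SLC10A5, SLC2A7 and SLC16A12.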
